A study of Mus musculus with 14 samples.

Results

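Bile acid synthesis in the liver was described here through 10 enzymes, Cyp7a1, Cyp8b1, Cyp27a1, Cyp7b1, Cyp39a1, Hsd3b7, Akr1d1, Amacr, Slc27a5 and Baat, chosen by gene symbol from the 17656 genes listed for each mouse. All 10 were found in every library. The study asked how loss of YTHDF1, a protein that reads m6A marks on RNA, changes the hepatitis that the plant lectin concanavalin A (ConA) causes in mice. Liver RNA of 14 male mice on a C57BL/6 background was sequenced, 1 mouse per library, 8 h after an intravenous injection. There were 3 WT and 3 KO mice given saline, and 4 WT and 4 KO mice given ConA at 8 mg/kg. KO stands for a mouse labelled as a Ythdf1 knockout (Ythdf1-/-), in which the gene was disrupted by CRISPR/Cas9 in the whole body and not in one cell type. Mice were 6 to 10 weeks old, and the age of single mice was not given in the sources used here. Values are in TPM, which divides the reads of each gene by transcript length and scales every library to 1000000, so levels can be compared between genes. The number of reads behind a value was not given, so error is given here as the spread between mice alone.

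Bile acids are made in hepatocytes from cholesterol. In the classic route Cyp7a1 hydroxylates cholesterol first and sets the rate, and Cyp8b1 later decides whether cholic acid or a chenodeoxycholic (in mice, muricholic) acid is formed. In the alternative route Cyp27a1 oxidises the side chain first and Cyp7b1 hydroxylates the oxysterol that results, while Cyp39a1 does so for an oxysterol that comes largely from the brain. Both routes share Hsd3b7 and Akr1d1, which rebuild the ring, Amacr, which turns the side chain into the form that peroxisomes can shorten, and Slc27a5 and Baat, which activate the acid with coenzyme A and join it to taurine or glycine. Bile acids returning to the liver switch Cyp7a1 and Cyp8b1 off through the receptor FXR (Nr1h4) and its target SHP (Nr0b2), and through a gut hormone that acts on Fgfr4 and its partner Klb.

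Before the members, 3 properties of the libraries bear on what follows. Ythdf1 itself was not lower in the libraries labelled KO: its TPM was 12.0 to 13.9 (WT) and 18.4 to 20.8 (KO) after saline, and 18.7 to 25.6 (WT) and 15.5 to 26.2 (KO) after ConA. After saline every KO value thus lay above every WT value. A value summed over the gene does not check for the loss of a part of it, so genotypes are used as labelled. WT saline replicates 2 and 3 were nearly alike. Over the 10459 genes tested between the saline groups, their median log2 difference was 0.0781, against 0.145 and 0.153 between each of them and replicate 1. Member calls and list counts that use WT saline were therefore repeated with these 2 libraries averaged into 1 mouse. By the same measure replicate 3 lay 0.373 to 0.393 from the other WT ConA mice, which lay 0.177 to 0.197 from each other, and 0.253 to 0.398 from the other KO ConA mice, which lay 0.124 to 0.22 from each other. Results that turn on replicate 3 are given with and without it.

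In saline-treated WT livers the 10 enzymes together held 1833 to 2112 TPM, and ConA brought this sum to 812 to 1006 TPM. Slc27a5 was the most abundant member in each of the 14 libraries. In WT saline it was followed by Cyp27a1 at 282 ± 10.6 TPM (SD, n = 3), whose range did not meet that of its neighbours. Baat, Hsd3b7, Akr1d1 and Cyp8b1 came next with means of 220, 213, 181 and 168 TPM, and each of them overlapped the next in that order. Cyp39a1 and Cyp7b1 were lowest, at 24.8 ± 6.75 and 17.6 ± 5.02 TPM, and overlapped as well. After ConA the order was another one. Cyp7a1 was the lowest member in all 8 ConA libraries and Cyp8b1 the lowest but one by mean in both ConA groups, while Slc27a5, Baat and Cyp27a1 held the top places.

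**Figure D1:**
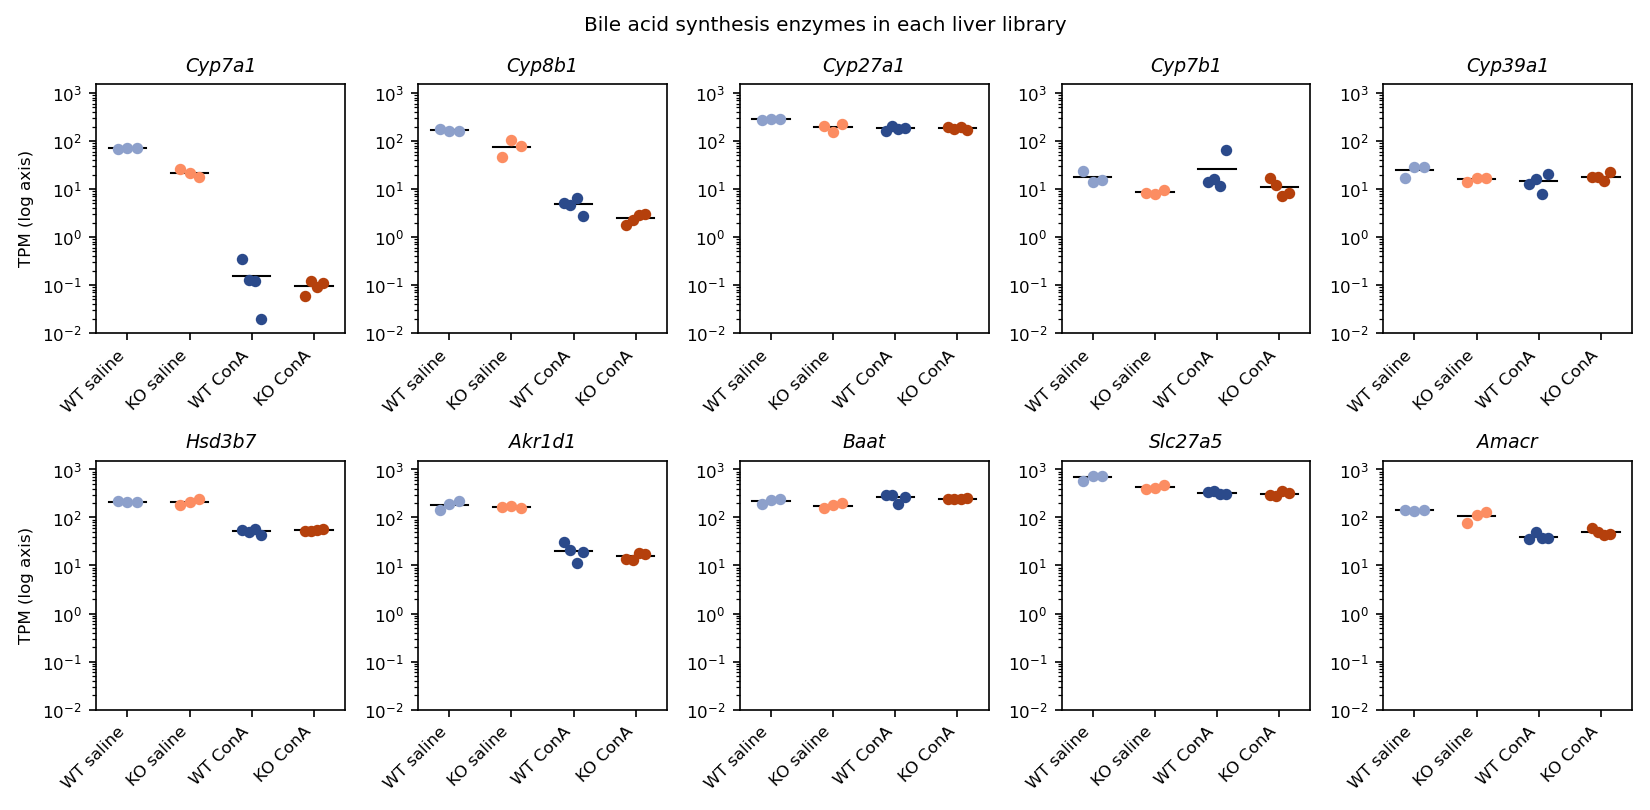
Level of each enzyme in each of the 14 libraries. Each point is 1 mouse, the y axis is TPM on a log scale with the same limits in all panels, the 4 groups are along the x axis, and the black line is the group mean. Cyp7a1 and Cyp8b1 drop furthest after ConA in both genotypes, Hsd3b7, Akr1d1 and Amacr drop less, and Baat, Cyp7b1 and Cyp39a1 overlap between WT saline and WT ConA.

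ConA lowered 7 of the 10 enzymes in WT livers and raised none (limma on log2(TPM + 1), Benjamini-Hochberg adjusted p under 0.05 over all genes tested). For comparison, 31.0% of the 10768 genes tested were called lower and 22.0% higher. The median log2 fold change of the members was -1.44, and that of all genes tested was -0.07. Averaging WT saline replicates 2 and 3 left the same 7 members called lower. Leaving Cyp7a1 aside for the reason given next, their adjusted p ran from 9.82e-06 to 0.0152 (limma). Genes were tested where enough libraries reached 1 TPM. Cyp7a1 met this through its saline libraries alone, in WT and in KO mice, so it had to come out lower and its change is given as a description, while the other 9 members were above 1 TPM in every library. Fewer hepatocytes and less RNA of a gene per hepatocyte cannot be told apart in whole-liver RNA. Among 15 hepatocyte markers 11 were also called lower and 2 higher, with a median of -0.88, and their summed level went from 120449 to 133338 TPM in WT saline to 64340 to 83648 TPM in WT ConA. None of these markers was at 0 in any group. All 8 neutrophil markers were called higher (summed level 4.76 to 11.2 TPM in WT saline, 328 to 579 TPM in WT ConA), and 7 of 8 Kupffer cell markers were called lower (108 to 182 TPM against 19.2 to 72.5 TPM). Of the 8 Kupffer cell markers, Adgre1 passed the filter through the WT saline libraries alone.

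Cyp7a1 and Cyp8b1, the classic-route enzymes described above, fell furthest. Cyp7a1 (gene ID 13122, chr4:6265612-6275632 in GRCm38.p6) had 66.8, 70.7 and 72.5 TPM in the 3 WT saline livers and 0.34, 0.13, 0.12 and 0.02 TPM in the 4 WT ConA livers. Every ConA library lay under 1 TPM, and the mean was 0.218% of the saline mean. On the log2(TPM + 1) scale, which understates changes of low genes, the difference was -5.95 (SE 0.143). In KO mice Cyp7a1 went from 26.3, 21.5 and 17.7 TPM to 0.06, 0.12, 0.09 and 0.11 TPM, again without overlap, a log2 fold change of -4.37 (SE 0.165). At such values the ConA livers of either genotype held almost no transcript of the rate-limiting enzyme.

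Cyp8b1 (gene ID 13124, chr9:121914356-121916305) had 180, 164 and 160 TPM in WT saline and 5.12, 4.72, 6.61 and 2.80 TPM in WT ConA. The WT ConA mean was 34.9-fold lower, and the log2 fold change was -4.90 (SE 0.216, adjusted p = 5.05e-07, limma). In KO mice the level went from 46.9, 102 and 79.0 TPM to 1.81, 2.24, 2.86 and 3.03 TPM, with a log2 fold change of -4.41 (adjusted p = 1.23e-07, limma). Cyp8b1 thus stayed measurable where Cyp7a1 nearly vanished. The ratio of Cyp7a1 to Cyp8b1 was 0.371 to 0.454 in WT saline and 0.00714 to 0.0664 in WT ConA.

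Promoter sequence is shown for Cyp8b1, which with Cyp7a1 fell furthest and whose window holds a motif of a hepatocyte factor. RefSeq windows (GRCm38.p6, read along the strand of the gene) were at hand for 4 of the 10 members, Cyp8b1, Cyp27a1, Akr1d1 and Hsd3b7. The stretch below is the 250 bases before the start of Cyp8b1, chr9:121916306-121916555 on the minus strand, outside the transcript.

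Cyp8b1 promoter: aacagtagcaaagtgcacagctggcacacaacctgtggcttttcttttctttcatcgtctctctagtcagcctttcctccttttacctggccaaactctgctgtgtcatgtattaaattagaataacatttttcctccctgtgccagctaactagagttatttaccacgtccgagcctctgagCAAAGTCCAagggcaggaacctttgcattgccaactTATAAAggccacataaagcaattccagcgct

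The capitals mark matches to 2 motifs, CAAAGTCCA, the recognition sequence of the hepatocyte factor HNF4A, 67 to 59 bases before the start, and the TATA box TATAAA, 31 to 26 bases before it. Both strands of the 250 bases before the start were searched in 32851 RefSeq windows. CAAAGTCCA was present in 0.384% of them and TATAAA in 12.4%. The 2 matches do not overlap. The D-box TTATGNAA, which the clock factors DBP and NFIL3 bind, was present in 3.07% of windows and, among these 4 members, in Akr1d1 (8 to 1 bases before the start) and Cyp27a1 (60 to 53 bases before it). The 30 bases that hold each of these 2 matches are chr6:37530143-37530172 and chr1:74713463-74713492, both on the plus strand, with the D-box in capitals. For Akr1d1 and Cyp27a1 the start that these windows use lies inside the gene interval given for them here, so the stretches are upstream of 1 annotated start and not of the whole gene.

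Akr1d1 stretch: ctcctcctagtgctcagttcttTTATGCAA
Cyp27a1 stretch: gattggaaggggTTATGAAAggatctggct

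The motifs were chosen after the windows had been read, and a match of letters is not a measured binding site. Hsd3b7 held none of the 3 motifs in its window. HNF4A's own transcript, Hnf4a, was not called in either genotype after ConA (log2 fold change 0.21 in WT and 0.33 in KO mice). Its values overlapped in WT mice, but in KO mice all ConA values lay above all saline values (means of 191 and 151 TPM). Dbp fell and Nfil3 rose, as given further on. Binding of these factors was not tested.

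Hsd3b7 and Akr1d1, the ring enzymes that both routes use, fell in both genotypes. Hsd3b7 (gene ID 101502, chr7:127800609-127803802) had 220, 209 and 211 TPM in WT saline and 54.2, 49.6, 58.1 and 42.2 TPM in WT ConA, a log2 fold change of -2.05 (SE 0.134, adjusted p = 3.81e-06, limma). In KO mice it went from 184 to 238 TPM to 51.8 to 56.2 TPM, a log2 fold change of -1.94 (adjusted p = 2.22e-07, limma). No ConA library reached a saline library. Only 6.13% of the 50-base stretches of its transcript are found in no other gene of the GENCODE vM21 annotation, since the read-through gene Gm49388 contains it, so its level is uncertain where reads were split between the 2. For the other 9 members that share was 100%.

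Akr1d1 (gene ID 208665, chr6:37529978-37574921) fell further than Hsd3b7. It had 140, 186 and 217 TPM in WT saline and 30.2, 20.6, 11.5 and 19.5 TPM in WT ConA, an 8.87-fold lower mean (log2 fold change -3.14, SE 0.284, adjusted p = 2.26e-05, limma). KO livers had 166, 170 and 156 TPM with saline and 13.7, 12.8, 18.0 and 17.5 TPM with ConA, a 10.6-fold lower mean (log2 fold change -3.33, SE 0.141, adjusted p = 1.94e-08, limma). The ratio of Akr1d1 to Hsd3b7 was 0.638 to 1.03 in WT saline and 0.197 to 0.557 in WT ConA.

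Of the side-chain enzymes, Amacr (gene ID 17117, chr15:10981756-10996624) had 141, 139 and 146 TPM in WT saline and 35.6, 50.2, 36.5 and 37.1 TPM in WT ConA, a log2 fold change of -1.82 (adjusted p = 1.12e-05, limma). In KO mice it was 78.5, 112 and 130 TPM with saline and 59.2, 49.3, 43.8 and 45.7 TPM with ConA, a log2 fold change of -1.07 (adjusted p = 2.88e-04, limma). Cyp27a1 (gene ID 104086, chr1:74713148-74737897), which also opens the alternative route, fell less. It had 270, 291 and 285 TPM in WT saline and 160, 208, 177 and 187 TPM in WT ConA, a log2 fold change of -0.63 (95% interval -0.90 to -0.35, adjusted p = 0.00215, limma). The groups did not overlap in WT mice. In KO mice Cyp27a1 was 208, 156 and 223 TPM with saline and 191, 180, 194 and 166 TPM with ConA, which overlap, with a log2 fold change of -0.08 (95% interval -0.39 to 0.22, adjusted p = 0.606, limma).

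The other oxysterol hydroxylases were not called in either genotype. Cyp7b1 (gene ID 13123, chr3:18071944-18243890) had 23.2, 13.8 and 15.6 TPM in WT saline and 14.2, 16.4, 11.6 and 63.6 TPM in WT ConA. The single value of 63.6 TPM belongs to replicate 4, and the log2 fold change was 0.25 with it (95% interval -0.88 to 1.38, adjusted p = 0.705, limma) and -0.28 without it (adjusted p = 0.321). Cyp39a1 (gene ID 56050, chr17:43667372-43751431) had 17.0, 28.8 and 28.6 TPM in WT saline and 12.4, 16.3, 7.87 and 20.9 TPM in WT ConA. Its log2 fold change of -0.79 missed the threshold (95% interval -1.48 to -0.09, adjusted p = 0.0562, limma) and passed it in 5 of the alternatives tried. In KO mice the log2 fold changes were 0.27 for Cyp7b1 and 0.17 for Cyp39a1 (adjusted p = 0.362 and 0.368, limma).

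The conjugating enzymes parted ways. Slc27a5 (gene ID 26459, chr7:12988346-12998192), which activates bile acids with coenzyme A, had 583, 741 and 737 TPM in WT saline and 347, 351, 313 and 302 TPM in WT ConA, a log2 fold change of -1.06 (SE 0.131, adjusted p = 1.47e-04, limma). In KO mice it went from 384, 415 and 471 TPM to 288, 284, 363 and 321 TPM, a log2 fold change of -0.43 (SE 0.126, adjusted p = 0.0113, limma). Both genotypes were without overlap, but after rescaling by the median ratio the fall in KO mice was not called (-0.47, adjusted p = 0.0744, limma). Baat (gene ID 12012, chr4:49489416-49507915), which adds taurine or glycine, was the single member that rose. In KO mice it had 156, 180 and 196 TPM with saline and 242, 246, 245 and 255 TPM with ConA, a log2 fold change of 0.48 (SE 0.110, adjusted p = 0.00275, limma). In WT mice it had 190, 231 and 238 TPM with saline and 298, 289, 189 and 268 TPM with ConA, which overlap through replicate 3 (log2 fold change 0.23, adjusted p = 0.299, limma). Without that library it was called higher in WT mice too (0.38, adjusted p = 0.0198, limma). Baat over Slc27a5 was 0.312 to 0.326 in WT saline and 0.603 to 0.887 in WT ConA, and 0.406 to 0.434 against 0.675 to 0.866 in KO mice.

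In KO mice as a whole, then, ConA lowered 6 of the 10 members and raised 1, where 30.7% of the 10988 genes tested were called lower and 33.9% higher. The 6 include Cyp7a1, which had to come out lower, and Slc27a5, which was not called after rescaling by the median ratio. The median log2 fold change of the members was -0.75 and that of all genes tested 0.07. Of the 15 hepatocyte markers 11 were called lower and 3 higher, and their sum was 111740 to 122696 TPM with saline and 54256 to 66628 TPM with ConA. All 8 neutrophil markers were called higher and 3 of 8 Kupffer cell markers lower, the latter with summed levels of 49.9 to 114 TPM with saline and 15.0 to 65.8 TPM with ConA. Of the neutrophil markers, 4 passed the filter through the ConA libraries alone in each genotype.

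**Figure D2:**
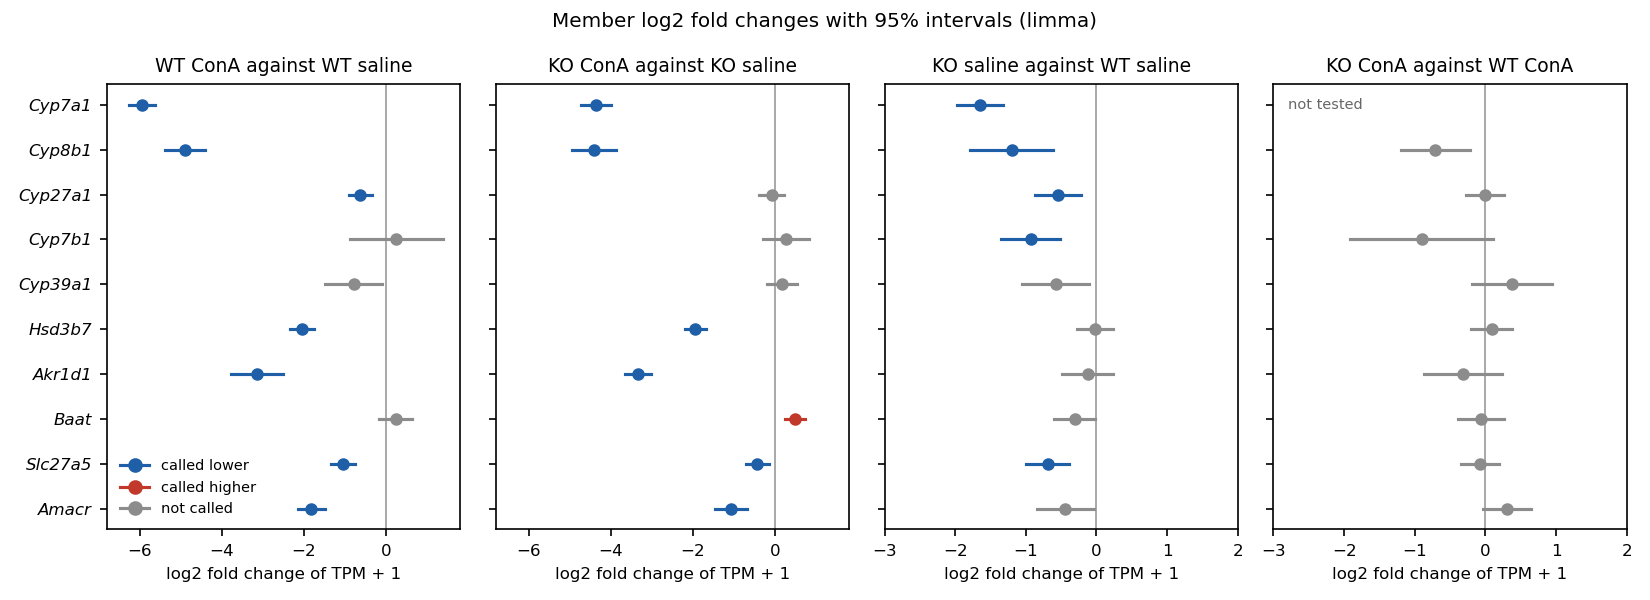
Log2 fold change of TPM + 1 for each enzyme in the 4 comparisons of 2 groups. Points are limma estimates, bars are 95% intervals, blue is called lower, red called higher and grey not called at an adjusted p of 0.05; the 2 panels on the right have a narrower x axis. Cyp7a1 was not tested in KO ConA against WT ConA because it lay under 1 TPM in all 8 libraries.

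Because the hepatocyte markers fell as well, members were also expressed relative to them, by dividing each library by the geometric mean of the 15 markers (for WT mice 2378 to 2679 TPM with saline and 1376 to 1602 TPM with ConA, for KO mice 2330 to 2436 and 1365 to 1450 TPM). This moved the median log2 fold change of all genes tested to 0.58 in WT and 0.71 in KO mice. Of all calls 83.1% were then higher in WT mice, against 41.5% with TPM as deposited, and 81.1% against 52.4% in KO mice. On that scale 5 members remained lower in WT mice: Cyp7a1 (-5.46), Cyp8b1 (-4.17), Akr1d1 (-2.36), Hsd3b7 (-1.26) and Amacr (-1.04). The first 4 of these were also lower in KO mice, with -3.91, -3.73, -2.58 and -1.17. Cyp7a1, tested through its saline libraries alone, had to come out lower here too, and its values are a description. Cyp27a1 and Slc27a5 did not stay called in WT mice, at 0.16 (adjusted p = 0.316) and -0.26 (adjusted p = 0.0680, limma), and Amacr did not in KO mice, at -0.31 (adjusted p = 0.130, limma). Baat was then called higher in both genotypes (1.02 and 1.26), and in KO mice Cyp7b1 (0.97), Cyp39a1 (0.90), Cyp27a1 (0.69) and Slc27a5 (0.34) were called higher too. Measured against the shifted median of all genes, Cyp27a1 was at -0.42 in WT and -0.02 in KO mice, Slc27a5 at -0.84 and -0.37, and Baat at 0.44 and 0.55. The sign of Cyp27a1 in both genotypes and of Slc27a5 in KO mice thus turned between TPM as deposited and the hepatocyte scale, but not against the median of all genes on that scale, while Cyp8b1, Akr1d1 and Hsd3b7 fell on both scales.

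**Figure D3:**
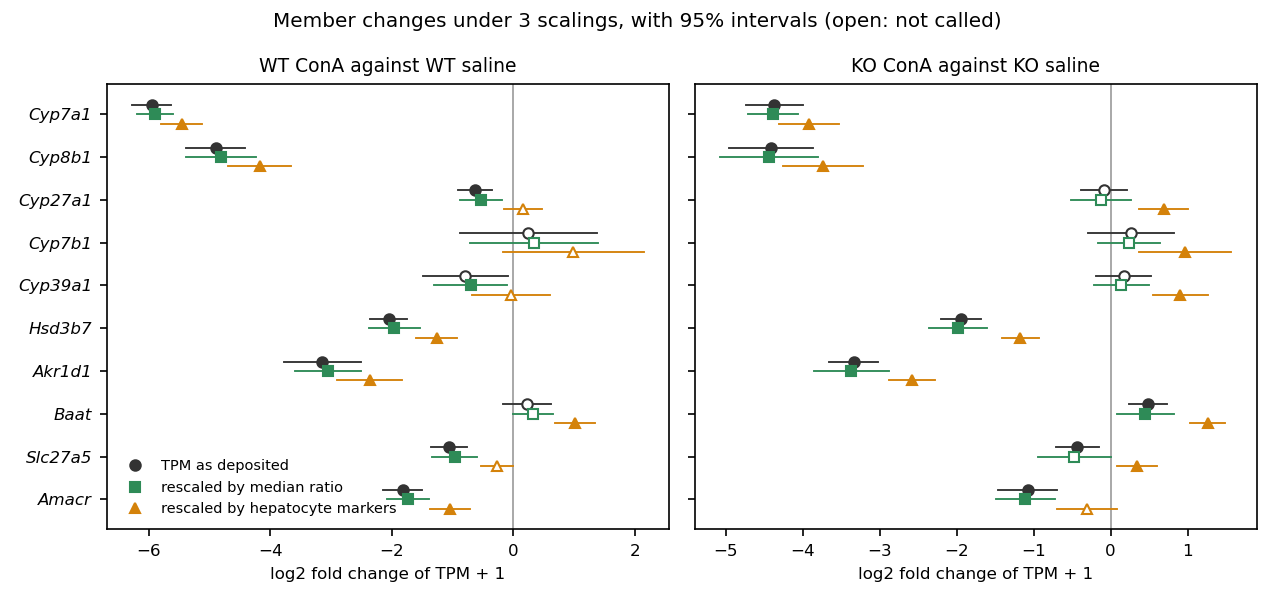
Log2 fold change of TPM + 1 after ConA for each enzyme with TPM as deposited (circles), rescaled by the median ratio (squares) and rescaled by hepatocyte markers (triangles). Bars are 95% intervals from limma and open symbols are not called at an adjusted p of 0.05. Cyp7a1, Cyp8b1, Hsd3b7 and Akr1d1 stay left of 0 under the 3 scalings in both genotypes, whereas Cyp27a1 and, in KO mice, Slc27a5 cross it under the hepatocyte scaling. Cyp7a1 was tested through its saline libraries alone and is shown as a description.

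Of 16 other genes of bile acid synthesis, 12 were called lower and 1 higher in WT mice (11 and 1 with WT saline replicates 2 and 3 averaged), where 31.0% and 22.0% of all genes tested were. In KO mice 12 were called lower and 2 higher, where 30.7% and 33.9% of all genes were. Ch25h and Cyp46a1 passed the filter through 1 of the groups alone in each genotype. The gene that rose in both was Ch25h, which makes the oxysterol that is hydroxylated at the end of the side chain and which immune cells also make. It was listed at 0, 0 and 0.06 TPM in WT saline and at 0.06, 0 and 0.17 TPM in KO saline, and had 18.2, 8.92, 5.70 and 6.89 TPM in WT ConA and 28.9, 15.9, 28.3 and 14 TPM in KO ConA (log2 fold changes 3.30 and 4.34, given as a description because it was tested through the ConA libraries alone). Akr1c14, a hydroxysteroid dehydrogenase that acts next to Akr1d1, fell from 174 to 215 TPM to 5.91 to 21.1 TPM in WT mice (log2 fold change -3.68). Slc27a2, an acyl-CoA synthetase related to Slc27a5, fell by 2.01 on the log2 scale in WT and by 1.53 in KO mice. Cyp46a1, the hydroxylase that feeds Cyp39a1, fell by 1.97 and 1.85, from 3.60 to 4.41 TPM to 0.20 to 0.44 TPM in WT mice. Akr1c6 and Hsd17b4, the latter a peroxisomal side-chain enzyme, fell by 1.71 and 1.32 in WT mice.

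Among 13 regulators of the pathway, 8 were called lower and 1 higher in WT mice, where 31.0% and 22.0% of all genes tested were. With the averaged WT saline libraries 6 were called lower and 1 higher, beside 2739 and 1881 of all genes. In KO mice 5 were called lower and 2 higher, where 30.7% and 33.9% of all genes were. The share called lower in KO mice was thus near that of all genes. Klb passed the filter through the saline libraries alone in both genotypes, so it had to come out lower. Nr0b2, which encodes SHP, had 71.7, 71.2 and 64.5 TPM in WT saline and 7.58, 12.5, 5.06 and 20.9 TPM in WT ConA (log2 fold change -2.65, adjusted p = 3.00e-04, limma), and fell by 3.31 in KO mice. Nr1h4, which encodes FXR, had 184, 158 and 153 TPM in WT saline, 32.9 to 81.2 TPM in WT ConA, 123, 135 and 108 TPM in KO saline and 24.6, 19.4, 13.5 and 15.0 TPM in KO ConA. Its log2 fold changes after ConA were -1.80 and -2.71, and every ConA library lay under every saline library. Klb, the partner of Fgfr4, fell from 10.3 to 12.1 TPM to 0.18 to 0.82 TPM in WT mice (-3.14) and by 2.49 in KO mice. Fgfr4 itself fell less and was called in WT mice alone (-0.68, adjusted p = 0.0203 in WT, and -0.03, adjusted p = 0.914 in KO mice, limma), a difference between genotypes that did not pass its own test (0.65, adjusted p = 0.201, limma interaction). The WT groups overlapped for Fgfr4, at 19.3 to 25.9 TPM with saline and 11.3 to 19.7 TPM with ConA.

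The clock output factors of the D-box moved in opposite directions. Dbp, which activates Cyp7a1, went from 169 to 203 TPM to 2.57 to 10.5 TPM in WT mice and from 133 to 223 TPM to 2.12 to 3.72 TPM in KO mice, log2 fold changes of -4.47 and -5.52. Nfil3, which competes with it for the same motif, rose from 7.15 to 9.06 TPM to 27.6 to 43.9 TPM in WT mice and from 4.74 to 8.97 TPM to 41.6 to 64.5 TPM in KO mice, log2 fold changes of 2.06 and 2.97. The coactivator Ppargc1a was low throughout and fell by 1.08 in WT mice (adjusted p = 0.00301, limma).

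**Figure D4:**
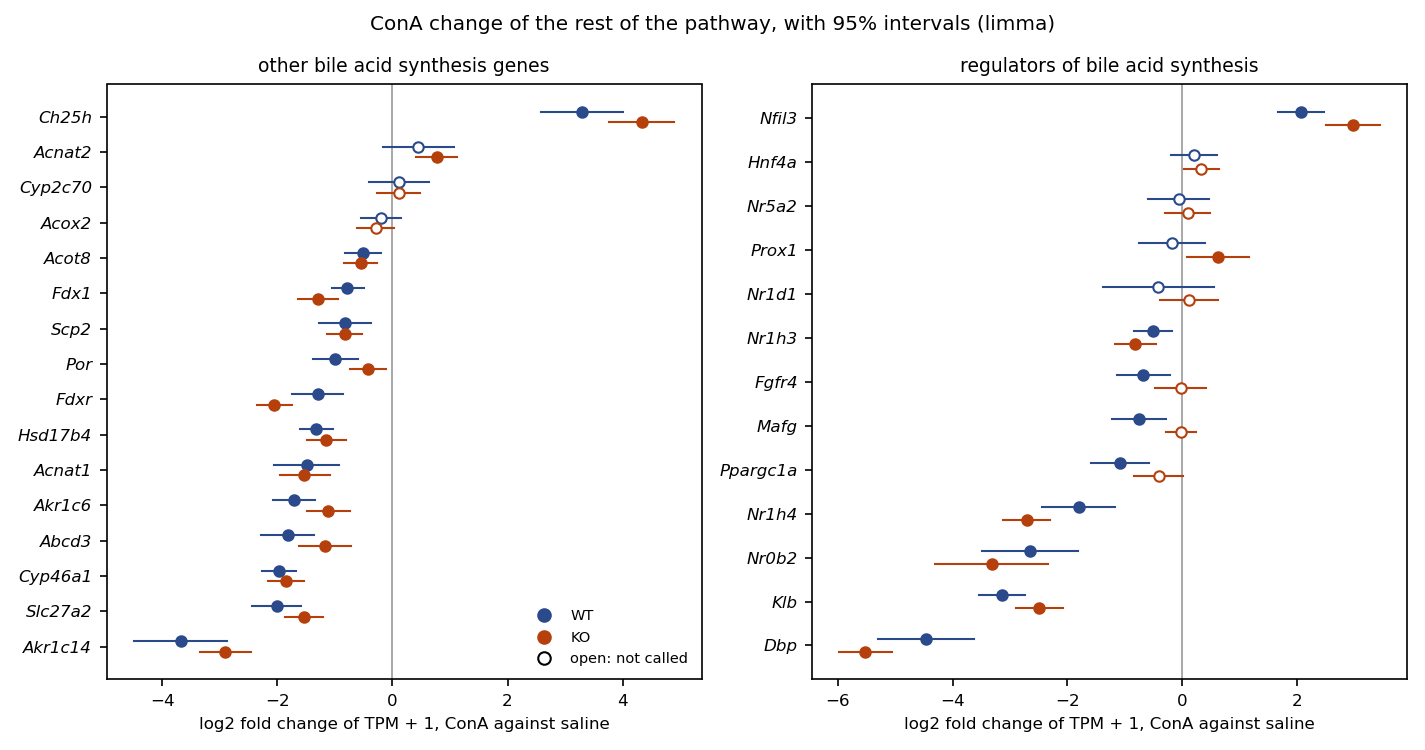
ConA against saline for the 16 other synthesis genes (left) and the 13 regulators (right), as log2 fold change of TPM + 1. Blue is WT and red KO, bars are 95% intervals from limma, and open circles are not called at an adjusted p of 0.05. Ch25h and Nfil3 lie far to the right in both genotypes, and Akr1c14, Klb, Nr0b2 and Dbp far to the left.

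Without ConA, 5 of the 10 members were called lower in KO than in WT livers, and with WT saline replicates 2 and 3 averaged 1 was. Of the 10459 genes tested 12.9% were called lower and 6.30% higher. All 10 members had a log2 fold change under 0 with TPM as deposited, but Hsd3b7 was at 0.06 after rescaling by the median ratio and at 0.08 relative to hepatocyte markers. The median of the members was -0.56 and that of all genes tested -0.10. Of all calls 32.8% were higher, and 51.5% after rescaling by the median ratio, where 4 members were called lower. Cyp7a1 differed most, with 26.3, 21.5 and 17.7 TPM in KO saline against 66.8, 70.7 and 72.5 TPM in WT saline, a 3.20-fold lower mean (log2 fold change -1.65, SE 0.138, adjusted p = 0.00144, limma). Cyp8b1 was 2.21-fold lower by mean (-1.20, adjusted p = 0.0248) and Cyp7b1 2.05-fold (-0.93, adjusted p = 0.0211), with 8.24, 7.95 and 9.44 TPM in KO saline (limma). Slc27a5 and Cyp27a1 had log2 fold changes of -0.69 and -0.54 (adjusted p = 0.0202 and 0.0382, limma). These 5 genes did not overlap between the groups, but neither did Cyp39a1 and Amacr, which were not called. The share of all genes without overlap was not counted, so the lack of overlap does not set these members apart. Hsd3b7 and Akr1d1, which ConA lowered in both genotypes, were not called (-0.02 and -0.12, with 95% intervals of -0.27 to 0.24 and -0.49 to 0.24).

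The calls between the saline groups changed with the libraries used. Members and genes called lower were 2 and 174 without KO saline replicate 1, and 2 and 343 without replicate 2. They were 6 and 2049 with KO saline replicate 3 left out. With the 2 nearly alike WT libraries averaged, which also makes the WT group smaller, 1 member was called. It was Cyp7a1 (log2 fold change -1.64, 95% interval -2.05 to -1.23, adjusted p = 0.0154, limma). Cyp8b1, Cyp7b1, Slc27a5 and Cyp27a1 then had adjusted p = 0.0999, 0.0787, 0.0991 and 0.136 (limma) at log2 fold changes of -1.23, -1.04, -0.64 and -0.53. Cyp7a1 was the single member called with each library left out in turn (adjusted p from 0.00151 to 0.0169, limma). Other lists moved between the same groups. Of 9 pericentral hepatocyte markers 3 were called lower and none higher. The 9 together held 10964 to 14848 TPM in the WT mice and 6961 to 9018 TPM in the KO mice. The 8 periportal markers were mixed, with 1 called lower and 1 higher and log2 fold changes from -0.86 to 0.53. Together these 8 held 7314 to 7646 TPM in the WT mice and 8050 to 9432 TPM in the KO mice. Of 15 hepatocyte markers 1 was called lower, 5 of 7 tested sinusoidal endothelial markers were called higher (24.0 to 33.2 against 39.0 to 64.6 TPM), and so were 2 of 8 stellate cell markers (17.8 to 73.7 against 65.9 to 113 TPM) and 2 of 4 tested cholangiocyte markers (46.6 to 57 against 83.8 to 89.5 TPM). All 8 Kupffer cell markers had log2 fold changes under 0 and none was called. Their part in the lower levels of the members was not tested. In the same comparison 3 of 15 tested other synthesis genes and 4 of 13 regulators were called lower, and none higher. Of all genes tested 12.9% were called lower there. With the WT saline libraries averaged, no gene of these marker and pathway lists was called (limma). At an unadjusted p under 0.05 (limma) there were then 4 of 15 other synthesis genes and 5 of 13 regulators. Among marker lists there were 5 of 8 sinusoidal endothelial, 3 of 4 cholangiocyte, 3 of 9 pericentral and 2 of 15 hepatocyte markers. The share of all genes at that threshold was not counted, so these counts do not set the pathway lists apart.

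After ConA no difference between genotypes passed the test for any of the 9 members that could be tested, where 0.0856% of the 10519 genes tested were called lower and 0.342% higher in KO livers (80% of calls higher, and 48.1% after rescaling by the median ratio). Cyp8b1 was the 1 member at an unadjusted p under 0.05 (limma), a threshold at which the share of all genes was not counted. It had 1.81, 2.24, 2.86 and 3.03 TPM in KO ConA and 5.12, 4.72, 6.61 and 2.80 TPM in WT ConA, where replicate 4 of WT ConA lay within the KO range (log2 fold change -0.71, 95% interval -1.20 to -0.22, adjusted p = 0.155, limma). Cyp7b1 was at -0.90 (95% interval -1.92 to 0.11), which rests on WT ConA replicate 4 in part, and at -0.37 without it. For the others the 95% intervals ran from -0.27 to 0.27 for Cyp27a1, -0.34 to 0.20 for Slc27a5, -0.39 to 0.27 for Baat, -0.20 to 0.38 for Hsd3b7, -0.03 to 0.65 for Amacr, -0.87 to 0.23 for Akr1d1 and -0.19 to 0.95 for Cyp39a1. Cyp7a1 lay under the limit of 1 TPM in all 8 libraries (0.02 to 0.34 TPM in WT ConA, 0.06 to 0.12 TPM in KO ConA) and was not tested. No other synthesis gene and no regulator was called either. Nr1h4 came nearest, with all 4 KO ConA values under all 4 WT ConA values (log2 fold change -1.35, adjusted p = 0.0664, limma).

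The ConA response was compared between genotypes with all 14 libraries. The interaction was called for 1 member, Cyp7a1, where 2.14% of the 11327 genes tested were called lower and 2.64% higher. Its log2 fold change after ConA was less negative in KO mice by 1.59 (SE 0.203, adjusted p = 0.00203, limma), and 1.57 with WT saline replicates 2 and 3 averaged (adjusted p = 0.0139). The 2 saline groups differed by 1.65 on the same scale and both ConA groups were under 1 TPM, so this value restates the saline difference. With a pseudocount of 0.1 in place of 1 it was 1.46 and was not called (adjusted p = 0.0820, limma). Slc27a5, Amacr and Cyp27a1 had interaction values of 0.63, 0.75 and 0.54 (adjusted p = 0.0549, 0.0763 and 0.0911, limma). With each library left out in turn Slc27a5 and Amacr stayed uncalled in 12 of 14 fits each. These 3 were lower in KO than in WT livers with saline by group mean, and the groups met after ConA, with 284 to 363 TPM in KO ConA and 302 to 351 TPM in WT ConA for Slc27a5.

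Within groups, variation of the members was described without a test. Over the 14 deviations of each gene from its group mean of log2(TPM + 1), the 45 pairs of members had a median Pearson r of 0.07, and 23 pairs lay above 0. The closest pair was Cyp8b1 and Hsd3b7 (r = 0.84), then Akr1d1 and Baat (0.81) and Cyp39a1 and Baat (0.75). Among 11326 other genes the nearest to each member were Map2k3 for Cyp7a1 (0.842), Azin2 for Cyp8b1 (0.939), Zfp791 for Cyp27a1 (0.813), Bok for Cyp7b1 (0.932), Zfp330 for Cyp39a1 (0.965), Rbks for Hsd3b7 (0.927), Slco1a4 for Akr1d1 (0.949), Lonp2 for Amacr (0.931), Nmi for Slc27a5 (0.957) and Gjb2 for Baat (0.982). These values describe 14 libraries that share their scaling, and they were chosen as the highest of many. After rescaling by the median ratio Azin2, Slco1a4, Lonp2, Nmi and Gjb2 were still the nearest, while Zfp791, Zfp330 and Map2k3 ranked 3908, 605 and 137.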

How the data were processed

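The authors sequenced liver RNA of 14 mice (single-end reads on a BGISEQ-500) and deposited 1 table of TPM per mouse, 17656 genes summing to 1000000. The study's methods name STAR and HTSeq, while the submitters' processing notes name Bowtie2, RSEM 1.3.1 and GRCm38.p6; which of them made the TPM is not given in the sources used here. Read depth was not given, so no counting error could be computed. Groups and replicate numbers came from the labels, which call the samples biological replicates.

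Since a count model is not applicable to TPM, groups were compared on log2(TPM + 1) with limma 3.58.1 under R 4.3.3, with a mean-variance trend. Genes entered a fit when the number of libraries at 1 TPM or above was no smaller than its smallest group, and a call means an adjusted p under 0.05 (Benjamini-Hochberg over all genes in the fit). Each comparison of 2 groups used its own libraries, and the interaction all 14. The procedure was tested on simulated data. The alternatives tried comprised 2 rescalings, no filter, a filter at 5 TPM, a pseudocount of 0.1, all 14 libraries in 1 fit, a replicate block, robust eBayes, each library left out, WT saline replicates 2 and 3 averaged, and replicates 3 of both ConA groups left out. The members, the lists of other genes and the alternatives were chosen with earlier results of these data known. Named were the 10 members, of each pathway list at most 6 genes called in WT ConA against WT saline or KO ConA against WT ConA by smallest p in the former, always Nr0b2, Nr1h4, Fgfr4 and Klb, and the genes with the highest correlation to a member; Hnf4a, Gm49388 and Ythdf1 were named for other reasons given in the text. Positions and promoter windows are from RefSeq on GRCm38.p6, and transcripts from GENCODE vM21. Python 3.11.15 (pandas 2.3.3, SciPy 1.17.1) made the tables, and matplotlib 3.10.9 the plots.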

Additional observations from a re-analysis of the deposited data

Results flagged for a closer look

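In 20 tests of the highest or lowest sample of a ConA group, 10 members in each of 2 groups of 4, 2 values stood further from the rest than Dixon's 95% limit, and chance alone flags about 1 in 20. Cyp7b1 had 63.6 TPM in WT ConA replicate 4, against 11.6 to 16.4 TPM in the other 3 mice of that group. Amacr had 50.2 TPM in WT ConA replicate 2, against 35.6 to 37.1 TPM in the other 3. Without that library the fall of Amacr after ConA in WT mice was still called. The response of Cyp7a1 to ConA differed between genotypes by the interaction test, with a value of 1.59 on the log2 scale, which restates the difference between the saline groups, since all ConA libraries were under 1 TPM. It was not called with a pseudocount of 0.1 (1.46, adjusted p = 0.0820, limma).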

How the results depend on the processing

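Read depth is unknown, so what counting noise adds to low genes such as Cyp7a1 after ConA cannot be given. Under the alternatives tried, the falls of Cyp8b1, Akr1d1 and Hsd3b7 after ConA kept their direction and their call in both genotypes. The cause of the changes below was not tested. Relative to hepatocyte markers, 1 member higher (Baat), 1240 genes lower and 6113 genes higher were called in WT ConA against WT saline in place of 0, 3336 and 2368, and 5 members higher, 1545 genes lower and 6641 higher in KO ConA against KO saline in place of 1, 3376 and 3723. On that scale Cyp27a1 turned to 0.16 in WT and 0.69 in KO mice and Slc27a5 to 0.34 in KO mice. Hsd3b7 turned to 0.08 in KO saline against WT saline (0.06 under the median ratio), and Baat and Slc27a5 to 0.03 and 0.02 in KO ConA against WT ConA.

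In KO saline against WT saline, 5 members and 1350 genes were called lower and 659 genes higher. With WT saline replicates 2 and 3 averaged these were 1, 20 and 29, with no filter 3, 571 and 387, and with all 14 libraries in 1 fit the genes were 132 and 200. Rescaling called 787 genes lower by the median ratio and 532 by hepatocyte markers. In KO ConA against WT ConA, 9 genes lower and 36 higher became 2 and 1 with no filter, 14 and 13 under the median ratio, 16 and 226 under hepatocyte markers and 224 and 416 with all 14 libraries, and Cyp27a1, at 0.00, turned to -0.09 under the median ratio and to -0.04 without replicates 3 of both ConA groups. For the interaction (1 member higher, 242 genes lower, 299 higher), 0 members were called with a pseudocount of 0.1 (limma) and 2 with a filter at 5 TPM or under hepatocyte markers, where 127 genes were lower. No filter called 166 genes higher, averaging called 9 and 19, and leaving out both replicates 3 called 433 and 1158. Cyp7b1, at 0.03, turned to -0.11 and -0.02 under the median ratio and hepatocyte markers and to -0.06 without both replicates 3, and Hsd3b7 turned to -0.03 under the median ratio. In the comparisons of ConA with saline, leaving out both replicates 3 is the same as leaving out the 1 that takes part.

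With each library left out in turn, members called higher in WT ConA against WT saline were 0 to 1, and members called higher in the interaction 1 to 3. In KO saline against WT saline 1 to 6 members were called lower, 17 to 2049 genes lower and 28 to 843 higher, with 1 member without WT saline replicate 2 or without WT saline replicate 3. With KO saline replicate 1 or KO saline replicate 2 left out, 2 members were called lower. Genes lower and higher were 1 to 8 and 4 to 44 in KO ConA against WT ConA and 7 to 372 and 15 to 482 in the interaction. Log2 fold changes that crossed 0, of which none was called, ran from -0.28 to 0.51 for Cyp7b1 in WT ConA against WT saline, -0.24 to 0.02 for Cyp27a1 in KO ConA against KO saline, -0.30 to 0.02 for Akr1d1 and -0.10 to 0.08 for Hsd3b7 in KO saline against WT saline, -0.20 to 0.01 for Baat and -0.06 to 0.06 for Cyp27a1 in KO ConA against WT ConA, and -0.43 to 0.01 for Akr1d1 and -0.23 to 0.55 for Cyp7b1 in the interaction.

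Whether the replicate numbers of the labels pair the mice was not settled. Deviations from the group means correlated at over 0.1 in 1 of 3 same-numbered pairs for ConA against saline in each genotype. They did so in 2 of 3 for KO saline against WT saline and in 3 of 4 for KO ConA against WT ConA. Between the ConA groups the highest value was 0.41 for same-numbered and 0.25 for other pairs. Between the saline groups it was 0.34 and 0.27. With the replicate block 24 genes were called lower and 116 higher in KO ConA against WT ConA, and 160 and 198 in the interaction. Members called were 8 lower in WT ConA against WT saline, 6 lower and 1 higher in KO ConA against KO saline, 7 lower in KO saline against WT saline, and 0 in KO ConA against WT ConA (limma); Cyp7b1 in WT ConA against WT saline turned to -0.28.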
